A study of Mus musculus with 2 samples.

Results

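Genes of the ATP-sensitive potassium (KATP) channel and of voltage-gated calcium channels were examined in MIN6 cells, a mouse insulinoma line that secretes insulin and stands in for beta cells of the pancreas. The 9 genes were taken by name and all 9 were among the 21542 genes of the deposited table: Abcc8 and Kcnj11 of the KATP channel, the pore genes Cacna1a, Cacna1c, Cacna1d and Cacna1h, and the auxiliary genes Cacnb2, Cacnb3 and Cacna2d1. One library came from cells given a plasmid that expresses the glucocorticoid receptor (GR), here the GR vector, and 1 from cells given a control vector. Both came from C57BL/6 cells kept in 25 mM glucose and 15% serum and given 4 ug of plasmid with 4.8 ul of a cationic lipid reagent in 3.5 cm dishes. The sources used here do not say whether a glucocorticoid was added, when cells were harvested or which form of the receptor was encoded. MIN6 is a single tumour line, so the groups stand for that line only. With 1 library per group there is no replicate check, and every interval given is, unless stated, a 95% interval that covers counting error only.

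In the beta cell, glucose metabolism raises ATP, which closes KATP channels made of equal numbers of a pore subunit (from Kcnj11) and a sulfonylurea receptor (from Abcc8). The membrane then depolarizes, voltage-gated calcium channels open, and the calcium that enters triggers insulin granule fusion. A voltage-gated calcium channel has a pore-forming alpha-1 subunit, which sets its type (L, P/Q, N, R or T), and, apart from the T type, a beta subunit inside the cell and an alpha-2-delta subunit outside it. Sulfonylurea drugs close the KATP channel through the Abcc8 product, and L-type channels carry much of the calcium current that drives insulin release in rodent beta cells.

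The libraries held 18525668 reads over genes with the GR vector and 18537326 with the control vector. Nr3c1, the gene of the receptor, had 5202 reads with the GR vector and 2645 with the control vector, a fold of 1.97 (1.88 to 2.07). Reads of the plasmid and of the cells' own gene cannot be told apart in such a count. All 10 beta cell markers were read, 4 of the 7 markers of other endocrine cells, all 7 neuron markers, 5 of the 7 muscle markers and 4 of the 6 stroma, immune, duct and acinar markers. Beta cell markers summed to 118499 TPM (a level per length, scaled to the same sum in each library) with the GR vector and 124812 with the control vector, with 3 of 10 genes higher and 3 lower by counting error (the rule is given with the fold results). By the same rule 10.8% of all genes averaging 100 reads or more were higher and 8.63% lower. Among all genes averaging 1000 reads or more, 15.7% were higher and 11.0% lower. The other endocrine markers summed to 109 TPM with the GR vector and 91.1 TPM with the control vector. Of the 2 above 100 reads, Gcg had 623 reads with the GR vector and 537 with the control vector and was higher by counting error, and Sst had 114 reads with the GR vector and 92 with the control vector and was past 1.2-fold but within counting error. Neuron markers, several of which beta cells also express, summed to 416 TPM with the GR vector and 431 TPM with the control vector, with 1 of 4 genes higher and 1 lower. The stroma, immune, duct and acinar markers summed to 57.9 TPM with the GR vector and 64.1 TPM with the control vector, nearly all of it Krt7, which was lower (fold 0.894). Muscle markers summed to 1.78 TPM with the GR vector and 1.83 TPM with the control vector, and Acta2 and Myh6 are not in the table used here. Their part in the results was not tested.

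In TPM, computed from recovered reads and the deposited gene lengths, the 9 genes stood in the same order in both libraries. Abcc8 was the highest at 557 (550 to 564) with the GR vector and 594 (587 to 601) with the control vector, rank 144 and rank 126 of all genes. Kcnj11 followed at 300.3 (293 to 308) with the GR vector and 311 (304 to 319) with the control vector. These are the subunits of the one potassium channel in the set. Cacna1c came next, then Cacnb3 at 76.3 TPM with the GR vector and 80.6 TPM with the control vector, and Cacna2d1 at 44.4 TPM with the GR vector and 39.2 TPM with the control vector. Cacna1d stood at 14.5 TPM with the GR vector and 16.0 TPM with the control vector, Cacna1h at 14.2 TPM with the GR vector and 13.7 TPM with the control vector, and Cacnb2 at 6.11 TPM with the GR vector and 5.81 TPM with the control vector. The last was Cacna1a, at 0.860 (0.646 to 1.12) with the GR vector and 0.855 (0.642 to 1.12) with the control vector. In that order 1 pair of neighbours could not be told apart by counting error: Cacna1d stood at 1.02 times the level of Cacna1h with the GR vector (0.927 to 1.12), while with the control vector the ratio was 1.17 (1.06 to 1.28). By coding length this ratio was 1.43 (1.30 to 1.57) with the GR vector and by longest transcript 1.12 (1.02 to 1.24), so both other lengths separate the pair. The order given is that by the deposited lengths. By coding length Cacnb2 stood above both Cacna1d and Cacna1h in both libraries. Both KATP genes stood above every calcium channel gene in both libraries. In a culture measured in bulk, fewer cells that express a gene and less RNA per cell cannot be told apart.

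**Figure D1:**
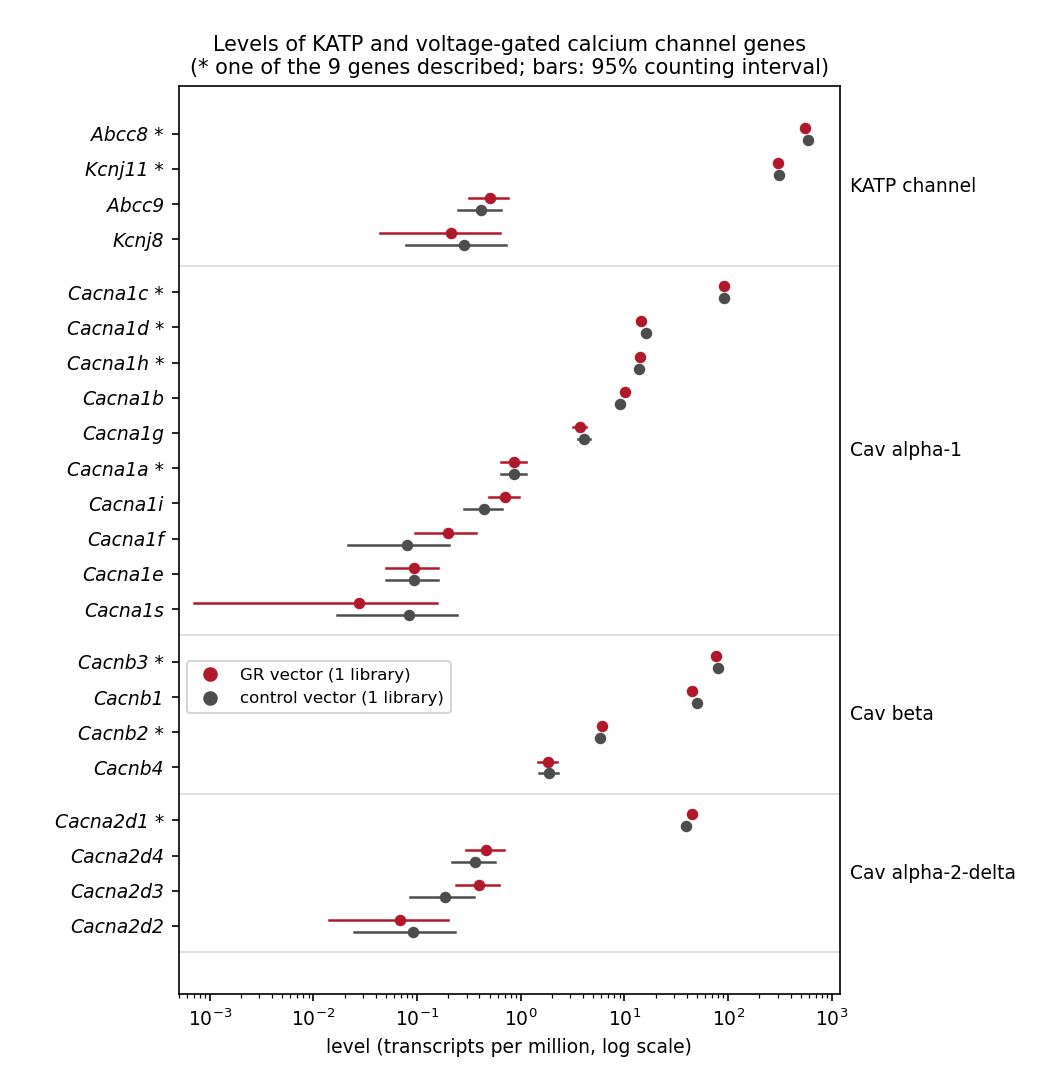
Level of each KATP and voltage-gated calcium channel gene (TPM, log axis) in the GR vector library (red) and the control vector library (grey), 1 library each, with 95% counting intervals as bars. Abcc8 and Kcnj11 have the highest levels in both libraries, at 557 and 300.3 TPM with the GR vector and 594 and 311 TPM with the control vector.

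None of the 9 genes differed by 1.2-fold or more between the libraries. A floor on the mean over both libraries of 100 reads was passed by 11070 genes, 8 of the 9 among them (not Cacna1a), and 5.04% of the 11070 differed that much, 2.68% higher and 2.36% lower with the GR vector. At 1.1-fold, 2 of the 9 were past the limit, Cacna1d and Cacna2d1, against 21.1% of the 11070. Another rule, that the counting interval leaves out 1, called more of the 11070 genes (either way, 19.5%). By it Cacna2d1 was higher with the GR vector (all genes, 10.8%), and Abcc8, Kcnj11 and Cacna1d were lower (all genes, 8.63%). Cacna1c, Cacna1h, Cacnb2 and Cacnb3 were within counting error. Deeper genes are called more often by this rule: of the 4867 genes averaging 1000 reads or more it called 15.7% higher and 11.0% lower (26.6% in all), and 6 of the 9 genes are in that class, among them Cacna2d1, Abcc8, Kcnj11 and Cacna1d. With a 99% interval, Cacna2d1 was still higher (all genes, 5.5%) and, of the lower ones, Abcc8 (all genes, 4.17%). The rule compares 2 libraries and not 2 conditions, since the spread between dishes was not measured. The median log2 fold of the 9 genes was 0.0042, beside 0.0042 over the 11070 genes. That median is the value of Cacna1a, which is below the floor with 54 reads in each library. Equal reads in both libraries give this value after scaling. For the 8 genes above the floor the median was -0.03.

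In the authors' deposited table all 9 genes had an adjusted p of 1, and the lowest unadjusted p among them was 0.672, for Cacna2d1. That table's adjusted p was under 0.05 for 0.0186% of all genes and its unadjusted p for 1.09%, and 0 of the 9 genes were in the deposited list of 233. The p-values of the authors' deposited table can be recomputed from the recovered reads by an edgeR exact test in which the coefficient of variation is set to 20% (largest difference in p 4.5e-08), so they rest on an assumed spread.

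**Figure D2:**
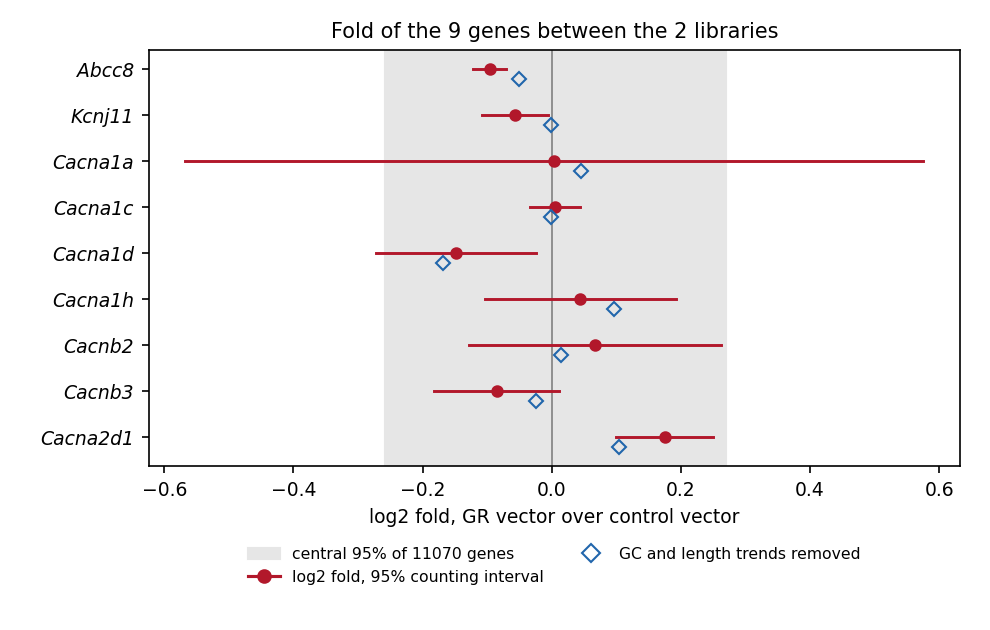
Log2 fold (GR vector over control) for the 9 genes (red points, with 95% counting intervals) and the same fold with the trends of GC content and gene length removed (blue diamonds). All 9 points lie inside the grey band, which holds the central 95% of the 11070 genes that average 100 reads or more (log2 fold -0.26 to 0.27).

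The sulfonylurea receptor gene Abcc8 (ENSMUSG00000040136, chromosome 7, 46104523 to 46180033, minus strand in the deposited table) had 24777 reads with the GR vector and 26562 with the control vector. The fold was 0.935 (0.919 to 0.952), a log2 fold of -0.10. The difference is small, yet genes this deeply read varied little between these libraries: of the 151 genes averaging 10000 reads or more, 9 had a larger absolute log2 fold. The GC content of its transcripts is 57.0%, and with the trends of GC content and length removed the log2 fold was -0.05 and 36 of the 151 genes lay farther from 0. The interval still left out 1 after that correction.

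The pore gene Kcnj11 (ENSMUSG00000096146, chromosome 7, 46093953 to 46100764, minus strand) lies 3758 bases from Abcc8 on the same strand, with its start on the side of the end of Abcc8. It had 6071 reads with the GR vector and 6333 with the control vector, a fold of 0.961 (0.928 to 0.996). Its transcripts have 57.6% GC, and with the trends removed its fold was 1.00, so the call was lost. Together the pair took 0.167% of all reads with the GR vector and 0.177% with the control vector (fold 0.940, 0.926 to 0.955).

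Kcnj11 stood at 0.539 times the level of Abcc8 with the GR vector (0.524 to 0.554) and at 0.525 times with the control vector (0.510 to 0.539). This ratio depends on which length divides the reads. Per base of the longest annotated transcript it was 0.380 with the GR vector and 0.370 with the control vector. Per base of the longest coding sequence (1170 bases for Kcnj11, 4764 for Abcc8) it was 0.998 (0.970 to 1.03) with the GR vector. With the control vector it was then 0.971 (0.944 to 0.998). The 2 transcripts are thus close to equal only by coding length, which leaves out exon bases outside the coding sequence. They are unequal by longest transcript and by the deposited exon lengths of 3677 and 8090 bases. The other KATP genes were read at a trace. Abcc9, the sulfonylurea receptor of heart and smooth muscle channels, had 23 reads with the GR vector and 19 with the control vector. Kcnj8, the pore partner used in vessels, had 3 reads with the GR vector and 4 with the control vector. Abcc8 and Kcnj11 therefore made up nearly all of the family's level, at 64.9% and 35.0% with the GR vector, against 65.5% and 34.4% with the control vector.

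The L-type pore gene Cacna1c (ENSMUSG00000051331, chromosome 6, 118587240 to 119196418, minus strand) had the highest level of the calcium channel genes among the 9. It had 10727 reads with the GR vector and 10725 with the control vector, a fold of 1.00 (0.976 to 1.03). The counts were nearly equal. Its level was 92.1 TPM with the GR vector and 91.5 TPM with the control vector. Of the 11070 genes, 10685 had a larger absolute log2 fold.

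The other L-type pore gene, Cacna1d (ENSMUSG00000015968, chromosome 14, 30039939 to 30491455, minus strand), opens at less depolarized voltages than Cacna1c channels. It had 1004 reads with the GR vector and 1116 with the control vector, a fold of 0.902 (0.828 to 0.983), the lowest of the 9. With the trends of GC content and length removed the fold was 0.890. Its fold is close to the edge of counting error, and 18.4% of the 11070 genes lay farther from 0. Exons of Cacna1d share 589 bases with Chdh on the opposite strand, and Chdh itself had 3 reads with the GR vector and 2 with the control vector.

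Per length, Cacna1c stood at 6.36 times Cacna1d with the GR vector (5.96 to 6.80) and at 5.72 times with the control vector (5.38 to 6.09). Both libraries thus read Cacna1c as the main L-type gene, and per base of coding sequence the ratio was larger still, at 10.5 with the GR vector and 9.42 with the control vector. These genes are close relatives, so their shared sequence shows how far reads can be told apart. Of the 31-base words in their coding sequences (7305 for Cacna1c and 6859 for Cacna1d in GENCODE M21, GRCm38), 18 are in both, and they form 2 stretches. The stretches are shown because a read lying wholly inside one could come from either gene.
Longer stretch, Cacna1c chr6:118654366-118654408 and Cacna1d chr14:30099154-30099196, both minus strand: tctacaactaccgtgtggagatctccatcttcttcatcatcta
Shorter stretch, Cacna1c chr6:118734901-118734935 and Cacna1d chr14:30142595-30142629, both minus strand: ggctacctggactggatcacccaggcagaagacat

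The T-type pore gene Cacna1h (ENSMUSG00000024112, chromosome 17, 25374285 to 25433783, minus strand) encodes a low-voltage channel that opens near the resting potential. It had 762 reads with the GR vector and 741 with the control vector, a fold of 1.03 (0.931 to 1.14), and its exons share 158 bases with Tpsg1 on the opposite strand. The P/Q-type pore gene Cacna1a (ENSMUSG00000034656, chromosome 8, 84388440 to 84640246, plus strand), best known for release at nerve endings, had 54 reads in each library and a fold of 1.00 (0.675 to 1.49). For Cacna1a a difference within that interval was not detectable at this depth. Part of its exons, 435 bases, overlaps Gm16183 on the opposite strand, and without stated strand handling such reads cannot be separated.

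Across all 10 alpha-1 genes the L type made up 78.3% of the summed level per length with the GR vector and 79.2% with the control vector. The T type made up 13.6% with the GR vector and 13.4% with the control vector, and the N type 7.35% with the GR vector and 6.71% with the control vector. The P/Q type made up 0.631% with the GR vector and 0.629% with the control vector, and the R type 0.0687% with the GR vector and 0.0685% with the control vector. By coding length the L type made up 88.5% with the GR vector and 88.9% with the control vector, the T type 7.14% with the GR vector and 7.01% with the control vector, and the N type 3.93% with the GR vector and 3.59% with the control vector. The P/Q type was then 0.381% with the GR vector and 0.380% with the control vector. Summed over the 4 pore genes of the set, there were 12547 reads with the GR vector and 12636 with the control vector (fold 0.996, 0.971 to 1.02). Cacna1c alone held 67.5% with the GR vector and 67.3% with the control vector of the level of all 10 alpha-1 genes by deposited length. Of the 6 alpha-1 genes outside the 9, the N-type gene Cacna1b had 548 reads with the GR vector and 502 with the control vector (fold 1.09, 0.968 to 1.24). The T-type gene Cacna1g had 207 reads with the GR vector and 229 with the control vector (fold 0.907, with an interval that held 1). The R-type gene Cacna1e, which mouse islets are known to use, had 13 reads in each library. The T-type gene Cacna1i had 38 reads with the GR vector and 24 with the control vector. The retinal L-type gene Cacna1f had 10 reads with the GR vector and 4 with the control vector, and the skeletal muscle L-type gene Cacna1s had 1 read with the GR vector and 3 with the control vector. None of these 3 was beyond counting error.

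**Figure D3:**
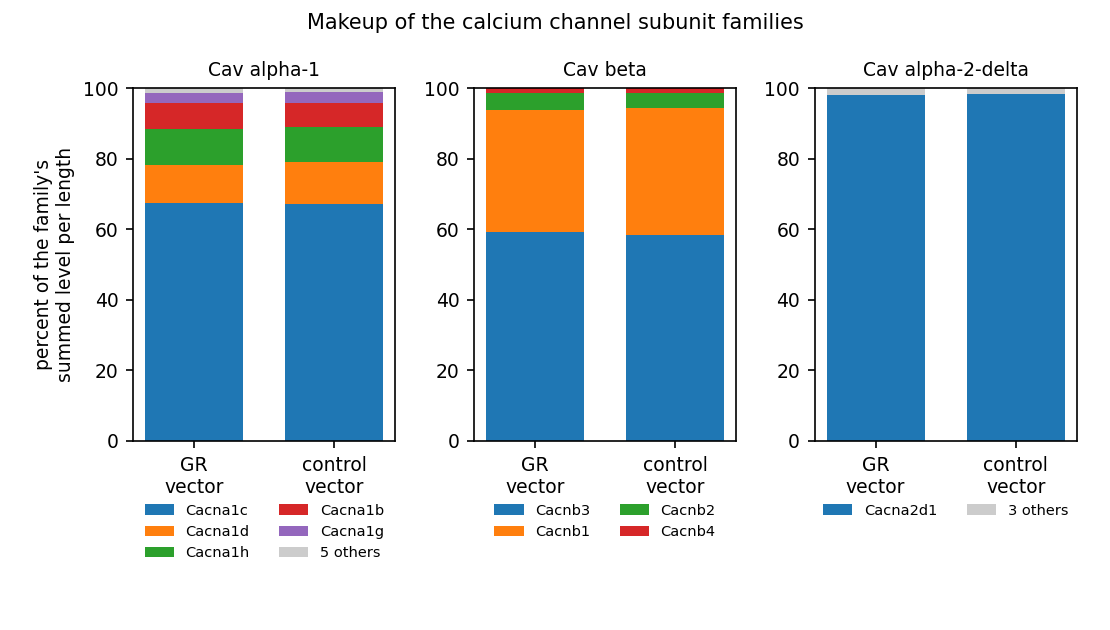
Share of each gene in the summed level per length of its calcium channel subunit family (percent, bars stacked from 0), with the GR vector library left of the control vector library in each panel. Cacna1c holds 67.5% of the alpha-1 level with the GR vector and 67.3% with the control vector, Cacnb3 59.2% of the beta level with the GR vector and 58.4% with the control vector, and Cacna2d1 98.0% of the alpha-2-delta level with the GR vector and 98.4% with the control vector.

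Beta subunits bring the pore to the membrane and set its gating. Cacnb3 (ENSMUSG00000003352, chromosome 15, 98630840 to 98644529, plus strand) was the leading one, with 1681 reads with the GR vector and 1788 with the control vector, a fold of 0.943 (0.882 to 1.01). Cacnb2 (ENSMUSG00000057914, chromosome 2, 14603088 to 14987908, plus strand) had 444 reads with the GR vector and 425 with the control vector, a fold of 1.05 with an interval that held 1. Per length, Cacnb3 stood at 12.5 times Cacnb2 with the GR vector (11.2 to 13.9) and at 13.9 times with the control vector (12.5 to 15.5). By coding length the ratio was 5.12 with the GR vector and 5.69 with the control vector, since the annotated exons of Cacnb2 (13228 bases) far exceed its longest coding sequence (1965 bases). Cacnb2 also shares exonic bases with 3 genes on the opposite strand, Gm10849 (618 bases) foremost.

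The second beta gene by level was Cacnb1, best known from skeletal muscle. It had 1112 reads with the GR vector and 1246 with the control vector. The fold was 0.895 (0.825 to 0.971), below 1 by counting error. With the trends of GC content and length removed it was 0.933, and the interval moved by the same factor held 1. Cacnb4, with 90 reads with the GR vector and 92 with the control vector, did not reach the minimum of 100. Cacnb3 held 59.2% of the beta level with the GR vector and 58.4% with the control vector, and Cacnb1 held 34.7% with the GR vector and 36.0% with the control vector. Of the 3 beta genes above the floor of 100 reads, 1 was lower by counting error before the trends were removed (all genes, 8.63%). None was higher (all genes, 10.8%).

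Cacna2d1 (ENSMUSG00000040118, chromosome 5, 15934691 to 16374511, plus strand) encodes the alpha-2-delta subunit that raises the number of channels at the surface and binds the drug gabapentin. It had 3030 reads with the GR vector and 2692 with the control vector, a fold of 1.13 (1.07 to 1.19), a log2 fold of 0.17 and the largest of the 9 in either direction. Of the 11070 genes, 13.4% lay farther from 0. Its transcripts are the poorest in GC of the 9 genes, at 42.4%. With the trends of GC content and length removed the fold was 1.07 and the interval still left out 1. The log2 fold was then 0.10, and that of Cacna1d, at -0.17, was the farthest from 0 of the 9. Cacna2d1 was nearly the only alpha-2-delta gene read. Cacna2d2 had 3 reads with the GR vector and 4 with the control vector, Cacna2d3 had 19 reads with the GR vector and 9 with the control vector, and Cacna2d4 had 24 reads with the GR vector and 19 with the control vector.

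**Figure D4:**
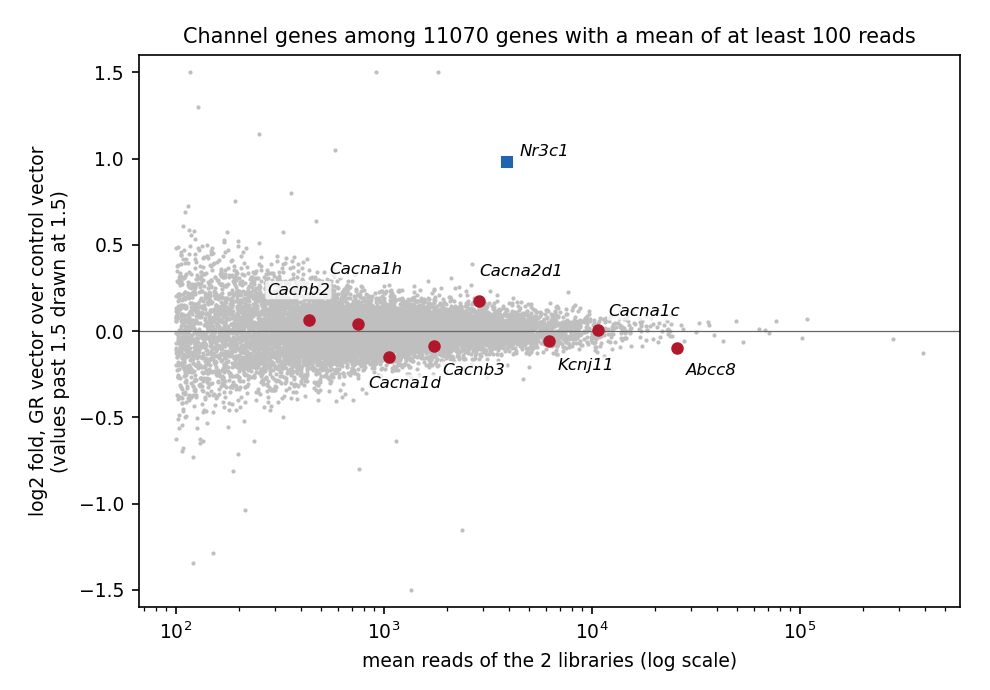
Log2 fold (GR vector over control) against mean reads (log axis) for the 11070 genes that average 100 reads or more (grey; values past 1.5 drawn at 1.5), with 8 of the 9 channel genes in red and Nr3c1 as a blue square. The red points lie between -0.15 (Cacna1d) and 0.17 (Cacna2d1), and Nr3c1 lies at 0.98.

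Sequence before annotated starts was available for Cacna1c, Cacna1d, Cacnb2, Cacnb3 and Cacna2d1, in 10 windows of 250 bases from RefSeq (GRCm38.p6), and each was searched because GR binds DNA. The full GR element (AGAACA, any 3 bases, then TGTTCT), which reads the same on both strands and holds the half-site on each, was in 0 of the 10 windows and in 0.00914% of 32817 windows of this length. The half-site TGTTCT, on either strand, was in 3 of the 10 windows and in 16.1% of all windows. Shown are the window of Cacna2d1, the gene with the highest fold, and windows of both L-type pore genes, none of which overlaps an annotated exon. Capitals mark half-sites on either strand. The Cacna2d1 window and the Cacna1d window shown hold none, and the Cacna1c window holds 2 that abut. The other windows with a half-site, 1 each, are those before the first listed start of Cacna1d and the second of Cacnb2, and both overlap annotated exons. A match is only a run of letters, and its absence covers only these windows.
Cacna2d1, 250 bases before the start, GRCm38, chr5:15934441-15934690, plus strand: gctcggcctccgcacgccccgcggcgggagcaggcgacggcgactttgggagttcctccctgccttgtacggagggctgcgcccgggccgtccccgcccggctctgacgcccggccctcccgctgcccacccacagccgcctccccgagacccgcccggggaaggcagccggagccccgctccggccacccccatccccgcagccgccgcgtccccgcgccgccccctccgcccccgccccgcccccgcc
Cacna1c, 250 bases before the third listed start, GRCm38, chr6:118757975-118758224, minus strand: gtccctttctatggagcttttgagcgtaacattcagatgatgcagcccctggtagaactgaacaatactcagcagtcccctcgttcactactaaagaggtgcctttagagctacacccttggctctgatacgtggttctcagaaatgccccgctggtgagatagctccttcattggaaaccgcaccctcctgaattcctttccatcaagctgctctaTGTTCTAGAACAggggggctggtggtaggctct
Cacna1d, 250 bases before the second listed start, GRCm38, chr14:30353487-30353736, minus strand: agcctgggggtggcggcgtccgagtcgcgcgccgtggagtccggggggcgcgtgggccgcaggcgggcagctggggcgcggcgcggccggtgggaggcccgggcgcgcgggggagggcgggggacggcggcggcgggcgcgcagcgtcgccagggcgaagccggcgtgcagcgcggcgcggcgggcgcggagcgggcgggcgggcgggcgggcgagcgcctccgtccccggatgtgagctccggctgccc

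Gamma subunits and related proteins were measured for 5 of 8 listed genes. Cacng7 had 1193 reads with the GR vector and 1298 with the control vector (fold 0.922, 0.851 to 0.998). With the trends of GC content and length removed the fold of Cacng7 was 0.954. Cacng4 had 601 reads with the GR vector and 566 with the control vector (fold 1.06, with an interval that held 1). Cacng2 had 105 reads with the GR vector and 108 with the control vector, Cacng8 had 7 reads with the GR vector and 17 with the control vector, and Cacng5 had 0 reads with the GR vector and 3 with the control vector. Of the 3 above the floor, Cacng7 was lower by counting error before that correction (all genes, 8.63%) and none was higher (all genes, 10.8%).

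Of 16 genes whose products regulate these channels, 15 were measured and 12 reached a mean of 100 reads. By counting error 2 of the 12 were higher and 2 lower, and their median log2 fold was -0.02. Over all genes at that minimum 10.8% were higher and 8.63% lower, and at a mean of 1000 reads 15.7% and 11.0%. Stx1a, the syntaxin that fuses granules and binds both kinds of channel, had 482 reads with the GR vector and 582 with the control vector, a fold of 0.831 (0.735 to 0.939). It was the 1 gene of the 12 past 1.2-fold (all genes, 5.04%). With the trends of GC content and length removed the fold of Stx1a was 0.862, which is within that limit. Rimbp2, which ties calcium channels to release sites, had 9989 reads with the GR vector and 10806 with the control vector (fold 0.927, 0.902 to 0.953). Rapgef4, a cAMP sensor that binds the Abcc8 product, had 1947 reads with the GR vector and 1825 with the control vector (fold 1.07, 1.00 to 1.14). Within counting error were Ank2, which anchors Kcnj11 channels (0.987), Rims2 (0.946), Cbarp, which restrains calcium channels through their beta subunit (0.955), and the small GTPase genes Gem (1.03) and Rem2 (1.07), whose products inhibit calcium channels.

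Of 18 genes for the steps around these channels, 17 were measured and 14 reached a mean of 100 reads. By counting error 2 of the 14 were higher (all genes, 10.8%) and 2 lower (all genes, 8.63%), and their median log2 fold was -0.05. None of the 14 was past 1.2-fold (all genes, 5.04%). Slc2a2, the glucose transporter, had 18426 reads with the GR vector and 18070 with the control vector (fold 1.02, 1.00 to 1.04). Kcnh2 had a fold of 0.961 (0.925 to 0.997), and of 1.00 with the trends of GC content and length removed. Kcnma1, the large-conductance calcium-activated potassium channel, had a fold of 0.923 (0.846 to 1.01). The lowest of the 14 was Kcnk3, a background potassium channel, with 530 reads with the GR vector and 629 with the control vector (fold 0.845, with an interval below 1), and the highest was Trpm5, a calcium-activated cation channel (1.07, 0.934 to 1.23).

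With 2 libraries a gene's pattern is a single ratio, so no gene can be named as most like another. Within 0.05 of the log2 fold of Cacna1c lay 4201 of the 11070 genes, within 0.05 of that of Abcc8 2414, of Cacna1d 1318 and of Cacna2d1 970.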

How the data were processed

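RNA of MIN6 cells was sequenced in 1 library per vector. The authors deposited a table with a normalized signal per gene and library, a log2 fold change, a p-value and an adjusted p-value, and gene coordinates and lengths, per the file headers. DESeq2 1.10.1 is listed in the submitters' processing notes. Aligner, counter, strand setting and genome build: not given in the sources used here.

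The signal is a read count times 1 factor per library, so whole reads were recovered (100% of values whole within 0.01 reads). Folds used edgeR 4.0.16 TMM factors and exact 95% Clopper-Pearson intervals. Levels in TPM used the deposited lengths, with exact Poisson intervals. Intervals cover counting error only. Of the deposited identifiers, 21516 occur in GENCODE M21 (GRCm38), 97.0% with equal coordinates. Trends of log2 fold on transcript GC and length were removed with lowess (span 0.3). The interval and trend steps were checked on simulated counts.

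The members and gene lists were chosen with earlier results of these data known. Genes outside the 9 were named by rule: every KATP and calcium channel subunit gene in the table, and from each other list genes averaging 1000 reads or more and the highest and lowest fold. Some genes that the rule names are not reported here. Alternatives were other scalings, fold limits, a 99% interval, read minimums and gene lengths.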

Additional observations from a re-analysis of the deposited data

How the results depend on the processing

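With total reads or DESeq2 size factors in place of TMM factors, the counts of genes past 1.2-fold (0), above 1 (1) and below 1 (3) by counting error were unchanged, and each of the 9 folds moved by less than its interval. With the trends of GC content and length removed, 2 genes were below 1, Kcnj11 was lost, the folds of Abcc8 (0.966) and Kcnj11 (1.00) moved outside their intervals, and the other 7 did not. Calls of genes outside the 9 are given without that correction. At a limit of 1.1-fold 2 of the 9 genes were past it, Cacna1d and Cacna2d1 (all genes, 21.1%). A 99% interval left 1 gene below 1, Abcc8 (all genes, 4.17%), and 1 above, Cacna2d1 (5.5%).

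The share of all genes past 1.2-fold was 37.5% with no read minimum and 0.288% at a mean of at least 1000 reads, and the share with an interval that left out 1 was 12.4% with no minimum and 26.6% at 1000 reads. With the longest transcript as length, the ratio of Kcnj11 to Abcc8 was 0.380 with the GR vector and 0.370 with the control vector, and with coding length from GENCODE M21 it was 0.998 with the GR vector and 0.971 with the control vector. The share of Cacna1d in the alpha-1 level was 9.40% with the GR vector and 10.4% with the control vector by longest transcript, and by coding length 7.70% with the GR vector and 8.52% with the control vector, against 10.6% with the GR vector and 11.8% with the control vector by deposited length. The share of Cacnb3 did not move beyond counting error. No paired analysis was possible because each group has 1 library, and for the same reason no replicate could be left out. Depth limits Cacna1a most, at 54 reads in each library.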
